A study of Homo sapiens with 6 samples.

Results

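Cyclins, cyclin-dependent kinases (CDKs), CDK inhibitors and the RB and E2F proteins that act below them were compared between a drug-resistant leukemia line and the line it came from. The 57 genes were taken by symbol from the deposited table, in which 19779 genes had a value in every library. The OTX P/R group was the persister resistant derivative of SET-2, 3 libraries of biologic replicates labelled as untreated. The parental group was SET-2 itself, 3 libraries, also labelled as untreated, read here as no drug added to either group. That label alone does not show whether drug was used to maintain the derivative. Both were leukemia blast cells grown in RPMI1640 with 20% fetal bovine serum and harvested in exponential phase. SET-2 is an established human line of megakaryoblastic character that the labels class as secondary acute myeloid leukemia. The labels write only OTX for the drug, read here as the BET bromodomain inhibitor birabresib. Only 1 derivative line was sequenced, and drug resistance cannot be separated here from any other way in which it diverged from its parent.

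Cyclins rise and fall through the division cycle and switch on the CDKs they bind. D cyclins with CDK4 or CDK6, and E cyclins with CDK2, phosphorylate RB and release E2F factors, which start the genes of S phase. A and B cyclins with CDK2 or CDK1 carry the cell through S phase and into mitosis. Inhibitors of the INK4 type block CDK4 and CDK6, those of the CIP/KIP type act more widely, and CDC25 phosphatases and WEE1-type kinases remove and add the phosphates that hold CDKs inactive. In leukemia, MYC and BET proteins are known to sustain transcription of several of these genes.

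The values were quantile-normalized StringTie abundances, which are divided by transcript length, so levels of different genes can be set side by side. In such a table a value reflects where a gene ranks in a library, and sequencing depth is unknown. Of the 57 genes, 46 had a mean of at least 1 over the 6 libraries and were tested, and 11 were lower and are given by their values. Calls were made with limma, fitted over all 10741 genes that met that minimum, at a threshold of 0.05 on the adjusted p. Fold changes are log2 values of OTX P/R over parental after adding 1 to each value, so those of low genes come out too small. The p-values measure the spread between these cultures.

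Markers of the megakaryoblastic character of SET-2 were present in part. Of 12 megakaryocyte markers 8 reached the minimum mean, of which 5 rose and 1 fell, where 36.1% of all tested genes were called. GATA1, not called, was at 203.9 in OTX P/R and 188.7 in parental cells, while PF4 was listed at 0 and VWF was near 0. All 6 erythroid markers reached the minimum mean too, of which 2 rose and 2 fell. So did 2 of 6 myelomonocytic markers, 1 of 4 T cell, 2 of 4 B cell, 1 of 4 epithelial and 0 of 4 stromal markers. Of these, 1 myelomonocytic, 1 T cell and 2 B cell markers fell, and 1 epithelial marker rose. CD3D, the T cell marker, stood at 0.593 in OTX P/R and 5.24 in parental cells, and the B cell marker MS4A1 was listed at 0. The part of these markers in the results was not tested.

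Of the 46 tested genes, 10 rose in OTX P/R cells, 5 fell and 31 did not pass. That is 32.6%, where 36.1% of all tested genes were called, 18.6% higher and 17.5% lower. The family was therefore called about as often as other genes. Its median log2 fold change was 0.09 against 0.02 over all tested genes, and its median size of change was 0.23 against 0.21. For 25 of the 46 genes the OTX P/R and parental libraries did not overlap, where this held for 51.6% of all tested genes. Among all tested genes 17.8% were called with a log2 fold change of at least 0.5 in size, and 7 of the 46 were, namely CCND3, CDK5, CCNE2, CDC25A, CCNG1, CDC25C and CDK6. CDKN2D came just under that size. In RNA from whole cultures, a different share of cells in a phase of the cycle and a different level per cell cannot be told apart.

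**Figure D1:**
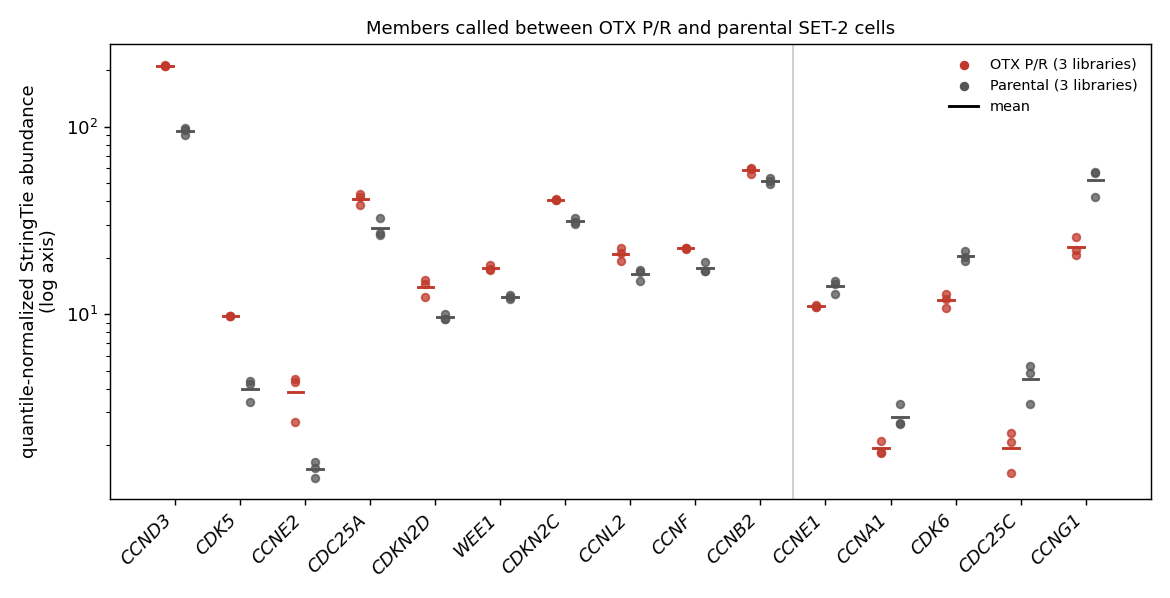
Quantile-normalized StringTie abundance (log axis) of the 15 called genes in the 3 OTX P/R libraries (red, left) and the 3 parental libraries (grey, right), with bars at the group means, ordered by log2 fold change. The 10 genes left of the vertical line were higher in OTX P/R cells and the 5 right of it were lower. With 1 added to each value, CCND3 rose and CCNG1 fell by the most. With 0.1 added, the log2 fold changes were 1.27 for CCNE2 and CDK5, 1.16 for CCND3, and -1.17 for both CCNG1 and CDC25C.

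**Figure D2:**
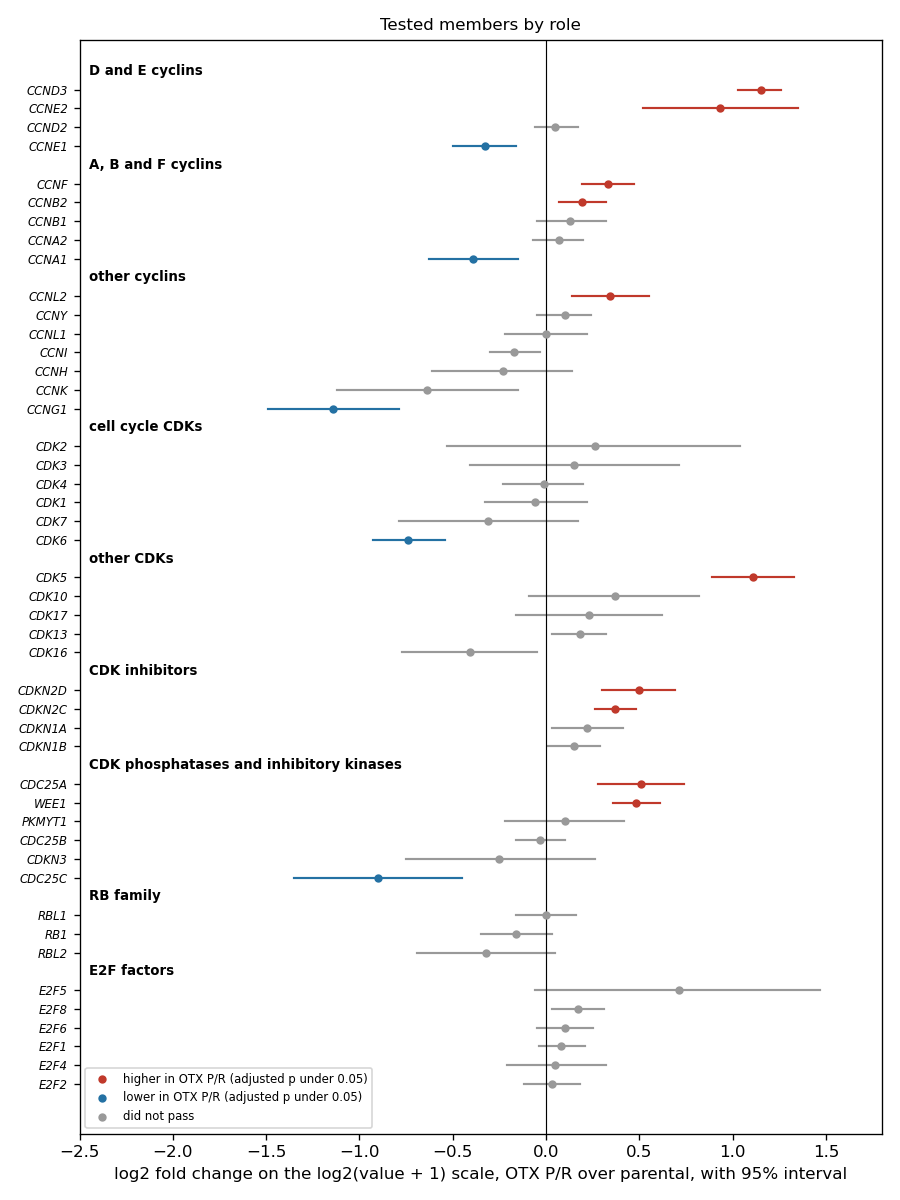
Log2 fold change (OTX P/R over parental, log2(value + 1) scale) with its 95% interval for the 46 tested genes, grouped by role and coloured by call. Called genes lie in most role groups and in both directions, and no RB family or E2F gene passed.

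Among the D cyclins, the growth-factor-responsive partners of CDK4 and CDK6, CCND3 rose and was the only one of those tested to pass. CCND3 stood at 209.8, 213 and 209.8 in the OTX P/R libraries, against 96.6, 97.8 and 89.8 in the parental libraries. Each OTX P/R library was above every parental one by a wide margin. The mean was 211 ± 1.95 in OTX P/R and 94.7 ± 4.30 in parental cells (SD, n = 3 each). The log2 fold change was 1.15 ± 0.05 SE (95% interval 1.03 to 1.26, limma adjusted p = 2.60e-05). CCND2, its close relative, was at 16.4, 16.5 and 16.6 in OTX P/R and at 15.6, 16.5 and 15.6 in parental cells. The CCND2 groups overlapped and the difference did not pass, with an interval of -0.06 to 0.17. CCND1, the D cyclin of many solid tumours, was under 1 in every library, from 0.577 to 0.724 in OTX P/R and from 0.844 to 0.932 in parental cells.

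Summed over the 3 D cyclins, the value was 228.1 ± 1.91 in OTX P/R and 111.5 ± 4.65 in parental cells (SD, n = 3 each). CCND3 made up 92.5% of that sum in OTX P/R and 84.9% in parental cells, and CCND2 made up 7.24% in OTX P/R and 14.3% in parental cells. The order CCND3, CCND2, CCND1 was the same in every library, and the groups of neighbouring genes in that order did not overlap. These sums are descriptions and were not tested.

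The E cyclins, which bind CDK2 at the entry to S phase, moved in opposite directions. CCNE2 stood at 2.66, 4.50 and 4.36 in the OTX P/R libraries, against 1.34, 1.52 and 1.63 in the parental libraries. OTX P/R replicate 1 was the lowest of its group and still above the parental range. The log2 fold change was 0.93 ± 0.17 SE (interval 0.52 to 1.35, limma adjusted p = 0.00765). CCNE1 stood at 11.3, 10.9 and 10.97 in the OTX P/R libraries, against 12.9, 15.1 and 14.5 in the parental libraries. It fell by 0.33 on the log2 scale (interval -0.50 to -0.16, limma adjusted p = 0.0137). CCNE1 was the more abundant of the pair, and the sum of both was 14.9 ± 0.847 in OTX P/R and 15.7 ± 1.295 in parental cells (SD, n = 3 each), within the spread of the libraries. The share of CCNE2 in it was 25.6% in OTX P/R and 9.55% in parental cells. On the genome CCNE2 shares exon bases with INTS8 on the other strand. The counting is not stated to use strand, so reads of such pairs cannot be told apart, and INTS8 did not pass (log2 fold change 0.22).

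Of the catalytic partners of the D cyclins, CDK6 fell and CDK4 did not pass. CDK6 stood at 12.8, 12.1 and 10.7 in the OTX P/R libraries, against 20.2, 19.3 and 21.8 in the parental libraries. The groups were well apart, with a log2 fold change of -0.74 ± 0.08 SE (interval -0.93 to -0.54, limma adjusted p = 9.75e-04). CDK4, which does the same task and was the most abundant of the CDKs tested here, stood at 153.2, 134.3 and 137.5 in OTX P/R and at 159.5, 135.4 and 134.3 in parental cells. Its groups overlapped, and the interval was -0.23 to 0.20. CDK6 made up 7.72 ± 0.496% of the summed CDK4 and CDK6 value in OTX P/R and 12.5 ± 1.37% in parental cells (SD, n = 3 each), so most of that sum was CDK4 in both lines.

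**Figure D3:**
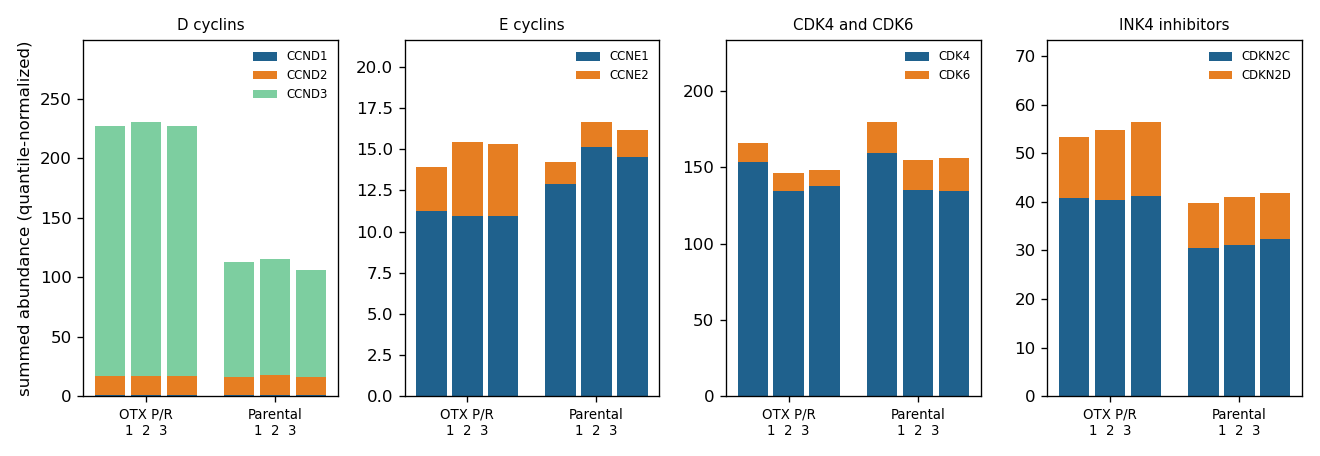
Summed quantile-normalized abundance of the D cyclins, the E cyclins, CDK4 with CDK6, and the INK4 inhibitors in each library, OTX P/R left and parental right, stacked by gene. The D cyclin sum averaged 228.1 in OTX P/R and 111.5 in parental cells, while the E cyclin sums averaged 14.9 in OTX P/R and 15.7 in parental cells, with a larger part from CCNE2 in OTX P/R. CDKN2A and CDKN2B were at 0 and do not appear.

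CDK2, the partner of E and A cyclins, varied more within the groups than between them. Its values were 30.6, 56.1 and 55.4 in the OTX P/R libraries and 46.1, 46.1 and 25.7 in the parental libraries. OTX P/R replicate 1 and parental replicate 3 were the low ones, and the interval of -0.53 to 1.04 is the widest of the tested CDKs. CDK1, the kinase of mitosis, stood at 26.8, 24.8 and 25.4 in OTX P/R and at 22.5, 27.7 and 30.6 in parental cells, and did not pass (interval -0.33 to 0.22). CDK7 and CCNH, which with MNAT1 form the kinase that activates other CDKs, did not pass either, at log2 fold changes of -0.31 and -0.23. For CDK7, OTX P/R replicate 2 was at 5.41 while the other libraries of both groups lay between 8.99 and 9.98. CDK3 was low, averaging 2.58 in OTX P/R and 2.27 in parental cells, and shares exon bases with the TEN1-CDK3 readthrough gene, between which reads could be split.

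The mitotic cyclins changed little. CCNB2, a partner of CDK1, stood at 60.6, 56.2 and 59.4 in the OTX P/R libraries, against 51.2, 53 and 49.5 in the parental libraries. The log2 fold change was 0.19 ± 0.05 SE (limma adjusted p = 0.0284), and the call was lost without OTX P/R replicate 1 or 3 or parental replicate 1 or 3, with adjusted p from 0.0378 to 0.0916 over the libraries left out. CCNF, an F-box protein that directs protein breakdown and binds no CDK, stood at 22.3, 22.5 and 22.7 in OTX P/R and at 19.0, 17.1 and 17.0 in parental cells. It rose by a log2 fold change of 0.33 ± 0.06 SE (limma adjusted p = 0.00671), the same direction in each library. CCNB1 and CCNA2, the main mitotic and S phase cyclins of dividing cells, did not pass, at log2 fold changes of 0.13 (interval -0.05 to 0.32) and 0.07 (-0.07 to 0.20). Without parental replicate 1, its highest parental library, CCNB1 passed (0.21, limma adjusted p = 0.0433), and it did not without any other library. CCNA1, an A cyclin of germ cells that is also known in myeloid leukemia, stood at 1.82, 1.84 and 2.13 in OTX P/R and at 2.59, 3.33 and 2.63 in parental cells. It fell by 0.39 on the log2 scale (limma adjusted p = 0.0255), and the call was lost without OTX P/R replicate 1 (adjusted p = 0.0790) or 2 (0.0789). CCNA1 was only 3.95% of the summed A cyclin value in OTX P/R and 5.995% in parental cells. CCNB3, a cyclin of meiosis, was near 0.

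The enzymes that set the inhibitory phosphates on CDKs changed on both sides. CDC25A, the phosphatase of the G1/S step, stood at 43.9, 38.2 and 42.0 in the OTX P/R libraries, against 32.5, 27.3 and 26.6 in the parental libraries, a log2 fold change of 0.51 ± 0.09 SE (limma adjusted p = 0.00797). WEE1, the kinase that opposes it, stood at 17.3, 18.3 and 17.4 in OTX P/R and at 12.6, 12.01 and 12.4 in parental cells, a log2 fold change of 0.48 ± 0.05 SE (limma adjusted p = 8.09e-04). Both rose, and in neither did the groups overlap. CDC25C, the phosphatase of mitotic entry, went the other way, at 1.43, 2.08 and 2.32 in OTX P/R against 4.89, 5.30 and 3.32 in parental cells (log2 fold change -0.90 ± 0.18 SE, limma adjusted p = 0.0119). CDC25B did not pass, at 27.5 in OTX P/R and 28.1 in parental cells (interval -0.16 to 0.10). Of the 3 CDC25 genes, CDC25A was 58.3% of the summed value in OTX P/R and 46.8% in parental cells, and CDC25C was 2.76% in OTX P/R and 7.31% in parental cells. PKMYT1, the membrane-bound relative of WEE1, and CDKN3, a phosphatase of CDK2, did not pass, at log2 fold changes of 0.10 and -0.25.

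E2F factors and the complex that holds G2/M genes are known to act through short promoter elements. The promoters of CDC25A and CCNB2, called genes whose windows match the letters of one, are shown here. Beside them is that of CDK1, which did not pass and whose window matches the letters of both. The windows run from 250 bases before to 50 after the start of the gene, from RefSeq on GRCh38.p14, and the first window listed for a gene was used. A window was found for 48 of the 57 genes. Capitals mark matches to E2F elements, searched as TTTCCCGC, TTTGGCGC, TTTGCCGC or TTTCGCGC, and to the cell cycle homology element TTTGAA, all on both strands. The windows are chr3:48188368-48188667 on the minus strand for CDC25A, chr15:59104896-59105195 on the plus strand for CCNB2 and chr10:60778081-60778380 on the plus strand for CDK1.
CDC25A: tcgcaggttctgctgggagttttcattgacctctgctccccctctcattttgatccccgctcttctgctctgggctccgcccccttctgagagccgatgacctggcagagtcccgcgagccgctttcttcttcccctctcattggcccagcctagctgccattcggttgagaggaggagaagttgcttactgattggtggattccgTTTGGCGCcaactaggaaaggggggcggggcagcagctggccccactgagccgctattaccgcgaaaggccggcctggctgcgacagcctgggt
CCNB2: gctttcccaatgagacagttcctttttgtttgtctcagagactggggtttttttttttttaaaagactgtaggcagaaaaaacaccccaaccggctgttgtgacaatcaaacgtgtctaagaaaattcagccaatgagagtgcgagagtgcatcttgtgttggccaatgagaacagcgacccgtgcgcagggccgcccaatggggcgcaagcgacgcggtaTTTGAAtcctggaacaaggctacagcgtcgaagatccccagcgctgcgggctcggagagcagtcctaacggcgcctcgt
CDK1: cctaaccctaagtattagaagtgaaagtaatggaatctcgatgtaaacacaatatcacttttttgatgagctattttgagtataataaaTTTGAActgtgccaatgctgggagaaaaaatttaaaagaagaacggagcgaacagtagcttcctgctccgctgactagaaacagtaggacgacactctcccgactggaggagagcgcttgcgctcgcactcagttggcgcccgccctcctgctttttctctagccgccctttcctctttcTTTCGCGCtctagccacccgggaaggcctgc
Counted from the start, the E2F match of CDC25A begins at position -44 and that of CDK1 at position 20. The TTTGAA match begins at position -29 in CCNB2 and -161 in CDK1. Whether the TTTGAA at -161 is the element through which CDK1 is controlled was not tested.

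An E2F element was in the window of 7 of the 48 genes (14.6%) and of 3.33% of the windows of all 27305 genes in the table of promoters. The 7 were CDC25A, CDK1, CDK10, E2F1, E2F2, E2F3 and RBL1, of which 1 rose, 5 did not pass and 1 was not tested. Of all tested genes 36.1% were called. TTTGAA was in 6 of the 48 windows (12.5%) and in 15.4% of all windows, so the share among these genes was near that of other genes. Of those 6, 2 rose, 3 did not pass and 1 was not tested, to be read against the same 36.1%. CCNB2 was among those that rose, and its call was lost without some libraries, as given above. A match of letters is not a bound site.

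In each of the 4 CDK inhibitors tested, every OTX P/R library was above every parental one, and the 2 of the INK4 type passed. Over all tested genes the libraries did not overlap for 51.6%, in either direction, and 36.1% were called. Every OTX P/R library was above every parental one in 2877 of the 10741 tested genes. CDKN2C, an INK4 inhibitor, stood at 40.9, 40.4 and 41.3 in the OTX P/R libraries, against 30.4, 31.1 and 32.4 in the parental libraries (log2 fold change 0.37 ± 0.04 SE, limma adjusted p = 0.00142). CDKN2D, another, stood at 12.4, 14.4 and 15.1 in OTX P/R and at 9.40, 9.99 and 9.47 in parental cells (log2 fold change 0.50 ± 0.08 SE, limma adjusted p = 0.00520). For both, each OTX P/R library was above every parental one. Of the CIP/KIP type, CDKN1B averaged 11.2 ± 0.236 in OTX P/R and 9.96 ± 0.518 in parental cells (SD, n = 3 each) and did not pass (interval 0.01 to 0.29, limma adjusted p = 0.0823). CDKN1A, the p53 target, averaged 6.59 ± 0.584 in OTX P/R and 5.51 ± 0.245 in parental cells and did not pass (interval 0.03 to 0.41, limma adjusted p = 0.0718), but passed without OTX P/R replicate 3 (0.0354). CDKN1C, known from imprinting and from quiescent cells, was below the minimum mean, at 0.105, 0.0874 and 0.0933 in OTX P/R and at 0.352, 0.584 and 0.383 in parental cells.

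CDKN2A and CDKN2B, the INK4 genes that share a locus on chromosome 9, were listed at 0 in all 6 libraries. All of the INK4 value therefore came from CDKN2C and CDKN2D, at sums of 54.9 ± 1.56 in OTX P/R and 41.0 ± 1.04 in parental cells (SD, n = 3 each). CDKN2C was 74.5% of it in OTX P/R and 76.5% in parental cells. Counted after the values were seen, CDKN2A and CDKN2B lay in a run of 39 consecutive genes of the table on chromosome 9 that were under 0.01 in every library. Of the 39, 33 were at exactly 0, where 12.2% of all genes in the table were at 0 in every library and 19.1% were under 0.01. The run holds 17 interferon genes, and 22 others such as MTAP, an enzyme of methionine salvage, PLAA and C9orf72. It is bounded by ACER2, at 0.305 in OTX P/R and 0.237 in parental cells, and by ACO1, at 2.20 in OTX P/R and 2.62 in parental cells. The run is the same in both lines, so it does not separate them.

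**Figure D4:**
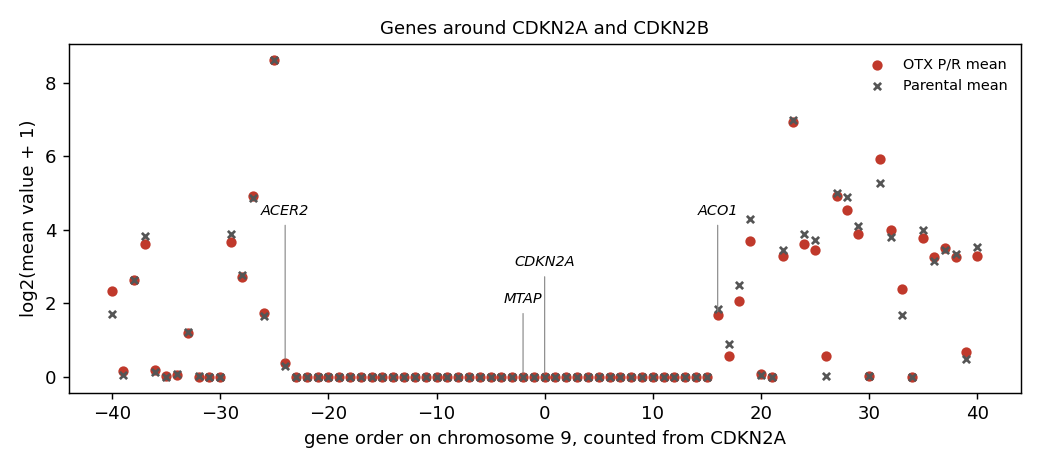
Log2(mean value + 1) of the genes on chromosome 9 within 40 genes of CDKN2A in the order of the annotation, OTX P/R means as red circles and parental means as grey crosses. The 39 genes between ACER2 and ACO1, CDKN2A and MTAP among them, lie at the floor in both lines, while genes on both sides reach higher values.

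None of the RB family or the tested E2F genes passed. RB1, the founding member, was at 9.27 ± 0.587 in OTX P/R and 10.5 ± 0.851 in parental cells (SD, n = 3 each; interval -0.35 to 0.03). RBL1 averaged 3.56 in both lines, and RBL2, its relative of resting cells, 4.66 in OTX P/R and 6.11 in parental cells (log2 fold change -0.32, interval -0.69 to 0.05). The tested E2F genes that start S phase were near equal. E2F1 was at 22.4 in OTX P/R and 21.1 in parental cells and E2F2 at 7.33 in OTX P/R and 7.17 in parental cells. Both intervals lie within -0.12 and 0.21. E2F3, of the same type, was below the minimum mean and is given further below. In E2F1, and in E2F5, E2F6 and E2F8, every OTX P/R library was still above every parental one. This held for 2877 of all 10741 tested genes. E2F4, a repressor in resting cells and the most abundant of the 8, made up 52.4% of the summed E2F value in OTX P/R and 54.3% in parental cells. E2F6 and E2F8 did not pass, at log2 fold changes of 0.10 and 0.17, though E2F8 passed in a fit that also took in the low genes (limma adjusted p = 0.0491). E2F5 stood at 4.51, 1.51 and 1.54 in the OTX P/R libraries, against 1.10, 0.919 and 1.00 in the parental libraries, and did not pass (limma adjusted p = 0.131). Its log2 fold change of 0.71 rests on OTX P/R replicate 1, without which it was 0.33 and passed (0.0415). E2F5 also shares exon bases with C8orf59 on the other strand, so their reads may not be told apart. C8orf59 was far more abundant, at 39.8 in OTX P/R and 40.7 in parental cells.

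E2F7, a repressor that E2F activators themselves switch on, was below the minimum mean and had the clearest contrast among the low genes. It stood at 0.786, 0.642 and 0.835 in the OTX P/R libraries, against 0.0919, 0.0600 and 0.0815 in the parental libraries. In a fit without the minimum mean, in which 23.5% of 19779 genes were called, 4 of the 11 low genes were called. E2F7 (log2 fold change 0.70, limma adjusted p = 8.45e-04) and E2F3 (0.23, 0.00298) were higher, and CDKN1C (-0.39, 0.0152) and CCND1 (-0.19, 0.0287) were lower. At such levels the added 1 keeps fold changes small. E2F3 averaged 0.929 in OTX P/R and 0.639 in parental cells. Of the other low genes, CCNG2, CDK18, CDK14 and CCNB3 were not called in that fit, and CDK20 was listed at 0 like CDKN2A and CDKN2B.

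The cyclins and CDKs with roles outside the core cycle held the remaining large changes. CDK5, a kinase best known from neurons, stood at 9.80, 9.76 and 9.74 in the OTX P/R libraries, against 3.39, 4.41 and 4.25 in the parental libraries (log2 fold change 1.11 ± 0.09 SE, limma adjusted p = 3.13e-04). Its activator CDK5R1 was under 1, at 0.505 in OTX P/R and 0.651 in parental cells. CCNG1, a p53 target that binds a protein phosphatase, stood at 25.8, 22 and 20.7 in OTX P/R and at 42.0, 57.2 and 56.4 in parental cells (log2 fold change -1.14 ± 0.14 SE, limma adjusted p = 0.00173). Both genes had groups that were far apart. CCNL2, a cyclin of the splicing machinery, stood at 22.7, 19.2 and 21.1 in OTX P/R and at 15.0, 17.3 and 16.8 in parental cells (log2 fold change 0.34, limma adjusted p = 0.0225). The CCNL2 call was lost without OTX P/R replicate 1 (adjusted p = 0.0659) or 3 (0.0651), or parental replicate 1 (0.0557) or 3 (0.0523). Its relative CCNL1 averaged 11.4 in both lines.

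CCNK, the cyclin of the transcription kinases CDK12 and CDK13, was just past the threshold on the uncalled side. It stood at 11.8, 17.0 and 14.3 in the OTX P/R libraries, against 28.0, 17.5 and 23.7 in the parental libraries, with a log2 fold change of -0.64 (interval -1.12 to -0.15, limma adjusted p = 0.05004). Without parental replicate 2, its lowest parental library, the adjusted p was 0.0212, and over the libraries left out it ranged up to 0.129. CCNK shares exon bases with CCDC85C on the other strand, which did not pass (log2 fold change 0.02). CDK13 did not pass (log2 fold change 0.18, adjusted p = 0.0602). CDK16, a kinase activated by CCNY, averaged 45.9 ± 6.75 in OTX P/R and 61.6 ± 9.69 in parental cells (SD, n = 3 each). It did not pass (adjusted p = 0.0738) but did without OTX P/R replicate 2 (0.0449) or parental replicate 3 (0.0418). CCNY, CCNI, CDK10 and CDK17 did not pass either, with log2 fold changes from -0.17 for CCNI to 0.37 for CDK10. CDK17 passed without OTX P/R replicate 1 (log2 fold change 0.41, limma adjusted p = 0.0264), against 0.23 with all libraries.

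Some of these genes lie among neighbours on the chromosome that shifted the same way. For each gene the median log2 fold change of up to 12 tested genes on either side was taken from the same fit. It reached 0.3 in size for 5 of the 46 tested genes, CCNG1, CDC25C, CDK5, CDKN2D and CDK10, and for 8.53% of all tested genes. Around CCNG1 on chromosome 5, 23 of 24 neighbours were below 0, with a median of -0.69. Around CDC25C, also on chromosome 5, all 24 were below 0, with a median of -0.55, FAM53C among them (-0.68), which shares exon bases with CDC25C on the other strand. Around CDK5 on chromosome 7, 22 of 24 were above 0, with a median of 0.79, and SLC4A2 (0.81) shares exon bases with it on the other strand. The neighbours of E2F3 on chromosome 6 were also higher, 22 of 24 with a median of 0.70.

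Other changes stood apart from their neighbours. CDKN2D rose while 20 of its 24 neighbours on chromosome 19 were below 0 (median -0.33). The median around CCND3 on chromosome 6 was 0.15, against the gene's own 1.15, and around CDK6 on chromosome 7 it was 0.07, against -0.74. Around CCNE2 on chromosome 8 it was 0.08 and around CDC25A on chromosome 3 also 0.08. Among the 41 tested genes whose neighbours had a median under 0.3 in size, 8 rose and 3 fell. Over all tested genes, whatever their neighbours, 18.6% were called higher and 17.5% lower. The share among all genes with such neighbours was not taken. What moved whole neighbourhoods was not tested.

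**Figure D5:**
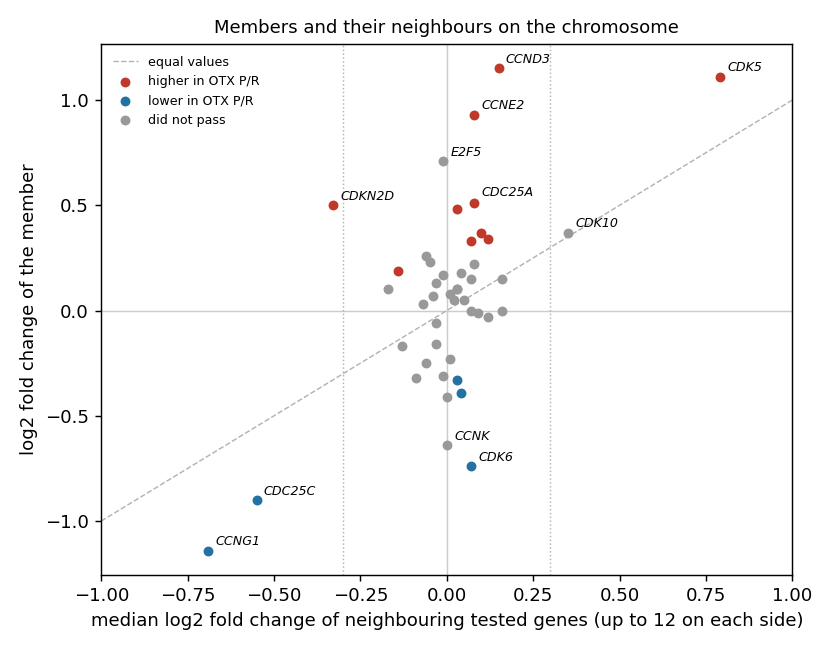
Log2 fold change of each tested gene against the median log2 fold change of its neighbours on the chromosome, coloured by call, with dotted lines at 0.3 and -0.3. CCNG1, CDC25C and CDK5 lie beyond the dotted lines on the side of their own change, CDKN2D lies beyond them on the opposite side, and CCND3, CCNE2 and CDK6 lie near a neighbour median of 0.

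Proteins that work with cyclins and CDKs were taken from a separate list of 43 genes, of which 39 were tested. Of these 11 rose, 3 fell and 25 did not pass, 35.9% called against 36.1% of all genes, with a median log2 fold change of 0.08. The largest rise was MYBL2, a transcription factor of the complex that switches on G2/M genes, at 211.6 ± 7.43 in OTX P/R and 92.2 ± 3.03 in parental cells (SD, n = 3 each; log2 fold change 1.19, limma adjusted p = 2.42e-05). CUL1 and SKP1, scaffold and adaptor of the ubiquitin ligase that degrades E cyclins and CDKN1B, went in opposite directions, CUL1 with a log2 fold change of 1.03 and SKP1 with -1.22. Both lie among neighbours that shifted their way, with medians of 0.70 on chromosome 7 and -0.79 on chromosome 5. GMNN, an inhibitor of replication licensing, rose (log2 fold change 0.75), with a neighbour median of 0.74.

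Genes that these factors drive were counted from another pair of lists, to be read against the 36.1% called among all tested genes. In the list of 30 genes of replication and E2F targets, 33.3% were called, 9 higher and 1 lower, and 20 did not pass, with a median log2 fold change of 0.12. TYMS, the enzyme that makes thymidylate, averaged 258.5 in OTX P/R and 188.5 in parental cells, and MCM7, of the replicative helicase, 282.1 in OTX P/R and 190.2 in parental cells. MCM7, with a log2 fold change of 0.57, lies on chromosome 7 among neighbours with a median of 0.49. The median around TYMS was -0.03. CDC6 was the gene that fell (log2 fold change -0.61), among neighbours with a median of -0.78. Of 30 mitotic genes 10 rose, 6 fell and 14 did not pass (53.3% called, against 36.1% of all tested genes), and the median was -0.00. NUF2, of the kinetochore, and UBE2C, which tags cyclins for destruction, rose, at log2 fold changes of 0.64 and 0.48. PTTG1, the securin, fell by 0.98 and HMMR by 0.72 on the log2 scale, and 4 of the 6 that fell had neighbours with a median of -0.3 or lower, as did 22% of all genes called lower.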

How the data were processed

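RNA of 3 OTX P/R and 3 parental SET-2 cultures was sequenced by the authors. Per the submitters' processing notes, the reads went through Trim Galore, HISAT2 and StringTie on hg19, with no version named. What the authors deposited is a linear signal per gene from StringTie, not stated to be FPKM or TPM. From 1 upward, sorted values differ between libraries by no more than 0.243%, so the table is quantile-normalized and depth is unknown.

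Of 19785 genes 6 had a missing value and were left out. Titles gave the groups. After log2(value + 1), limma 3.58.1 (R 4.3.3) was fitted to the 10741 genes averaging 1 or more, with a trended variance prior, two-sided tests and Benjamini-Hochberg adjustment over all of them. An exact permutation test of 3 against 3 cannot go below 0.1. Chromosomes and gene order came from GENCODE 29, on GRCh38 and not the authors' build. The procedure was tested on simulated data. Not every promoter window found is reported here. Alternatives changed the pseudocount, the minimum mean, the prior, centring, the handling of repeated symbols and the libraries used. The genes and lists were chosen with earlier results of these data known. All 57 genes are accounted for, every called one is named, and of each other list up to 3 called genes per direction are named. Tables used Python 3.11.15 and pandas 2.3.3.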

Additional observations from a re-analysis of the deposited data

How the results depend on the processing

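Of the 15 called genes, 12 kept their call under every alternative run for them, and none changed direction. CCNA1, CCNB2 and CCNL2 lost it in some. The number called was 15 with a pseudocount of 0.1 or 5, without a trend in the prior, with a robust prior and after centring, 13 with a minimum mean of 5, 16 with repeated symbols summed, and 14 to 16 with a library left out. Without a filter on low values it was 19 of 57. Over all genes 3029 to 3453 were called with a library left out. Replicate numbers did not pair the libraries: deviations of same-numbered libraries correlated at -0.065, -0.028 and -0.000, and no library correlated best with its own number. With the replicate block 12 of the 46 genes and 3159 of all genes were called.

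Of the 31 uncalled genes 7 passed under some alternative. Among uncalled genes, fold changes near 0 changed sign with a library left out. The ranges were -0.03 to 0.03 for RBL1 (0.00 with a pseudocount of 5), -0.07 to 0.06 for CCNL1, -0.07 to 0.07 for CDK4, -0.06 to 0.13 for E2F4, -0.06 to 0.34 for CDK3, -0.18 to 0.04 for CDK1, -0.01 to 0.54 for CDK2 and -0.00 to 0.20 for PKMYT1. Of the p53 target genes 6 were called, and 2 with a minimum mean of 5, where fewer were tested. Of the 4 called among the other cyclin and CDK genes, 2 to 3 were called with a library left out. Depth is unknown, so values under 1 are the least certain.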

Other observations

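Of 20 other genes of the cyclin and CDK families, 13 were tested, 3 rose, 1 fell and 9 did not pass (30.8% called, against 36.1% of all tested genes), and the number called with a library left out ranged from 2 to 3, at 2 without OTX P/R replicate 1 or parental replicate 2 or 3. CDK9, the kinase of transcription elongation, averaged 35.0 ± 1.44 in OTX P/R and 29.1 ± 0.885 in parental cells (SD, n = 3 each; log2 fold change 0.26). CDK12, which phosphorylates RNA polymerase II with CCNK, averaged 9.10 ± 1.93 in OTX P/R and 13.1 ± 1.03 in parental cells (SD, n = 3 each), a log2 fold change of -0.50. The CDK12 call (limma adjusted p = 0.0428) was lost without any 1 library other than OTX P/R replicate 3, at adjusted p from 0.0648 to 0.118, and with the replicate block (0.0685). CDK12 had neighbours with a median log2 fold change of -0.77 on chromosome 17. CCNYL1 and CCNJ rose by log2 fold changes of 0.55 and 0.28. The CCNYL1 call was lost without parental replicate 1 (limma adjusted p = 0.0613), 2 (0.0513) or 3 (0.0528), and the CCNJ call without OTX P/R replicate 1 (0.0584) or 3 (0.0587).

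Of 20 p53 target genes, 19 were tested, 3 rose, 3 fell and 13 did not pass (31.6% called, against 36.1% of all tested genes), and the median log2 fold change was 0.09. GADD45A, a stress gene that slows the cycle, averaged 20.8 ± 0.852 in OTX P/R and 11.6 ± 0.185 in parental cells (SD, n = 3 each; log2 fold change 0.79). TNFRSF10B, a death receptor, averaged 1.75 ± 0.0976 in OTX P/R and 4.65 ± 0.751 in parental cells (SD, n = 3 each), a log2 fold change of -1.03.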
